A study of Canis lupus familiaris with 36 samples.

Results

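MiR-10 and miR-196 are microRNAs (miRNAs) whose genes lie inside the HOX clusters, and 4 of them were followed here in heart tissue with and without hemangiosarcoma (HSA), a malignant tumor of endothelial cells. The members were chosen by name from the deposited table of mature miRNAs, as cfa-miR-10a, cfa-miR-10b, cfa-miR-196a and cfa-miR-196b, written below without the prefix for the dog. These are 4 of the 453 mature miRNA names in the table. Small RNA was sequenced from formalin-fixed, paraffin-embedded heart tissue of dogs, in 6 libraries titled as cancer and 6 titled as healthy. Per the study's methods, the cancer tissue came from dogs with histologically diagnosed cardiac HSA and the control tissue was taken at necropsy from dogs whose death had a cause other than a tumor. The labels give no age, agent or genotype for any of these dogs. The paper states that the HSA dogs were significantly older than the control dogs and that earlier chemotherapy was no ground for exclusion. Age therefore cannot be told apart from the condition in the differences below, and the part of earlier treatment was not tested. The tissue was sectioned whole, so each library mixes tumor cells with whatever muscle, blood and stroma the block held. In such bulk tissue, fewer cells of a type and less RNA per cell cannot be told apart. The treatment field of the labels names the reverse condition for every heart library, and the titles were used. The splenic libraries of the series, 18 HSA and 6 control, were not analysed here.

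HOX genes encode transcription factors that set position along the body axis, and their order within a cluster follows the order in which they are used from head to tail. The miRNA genes between them are transcribed with their neighbours and are known to repress HOX transcripts in turn. In the RefSeq dog annotation of the UU_Cfam_GSD_1.0 assembly, the gene of miR-10a lies between HOXB4 and HOXB5, and that of miR-10b between HOXD8 and HOXD3. MiR-196b lies between HOXA9 and HOXA10. MiR-196a has a pair of genes, one between HOXB9 and HOXB13 and the other beside HOXC10. The miR-10 genes thus sit in the forward part of their clusters and the miR-196 genes in the rear part. The sequences of miR-10a and miR-10b are nearly identical, as are those of miR-196a and miR-196b, and the members of each pair share a seed. HOX transcripts themselves were not measured.

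After identical entries were merged, the control libraries held 6999830 to 11668822 counts and the HSA libraries 2018959 to 8999025. Levels are given as CPM, counts scaled to a common library total, normalized by edgeR's trimmed mean of M values (TMM). Some HSA libraries stood apart in their tissue markers before any member was considered. The summed level of 8 heart and skeletal muscle miRNAs was between 189921 and 271362 CPM in control. In this sum miR-133a and miR-133c, whose counts were equal in 9 of 12 libraries and differed by at most 6 elsewhere, enter as separate entries. HSA replicate 1 lay just above the lowest control sum, with 190256 CPM, and HSA replicate 6 lay inside the range, with 233009 CPM, whereas HSA replicates 2, 3, 4 and 5 had 21821, 942, 40090 and 94724 CPM. Without miR-133c the control sums were 127045 to 187517 CPM, and HSA replicates 1 and 6, with 130291 and 161535 CPM, were again inside. Single markers in these libraries did leave the control range, 2 of 8 below and 2 above it in HSA replicate 1, and 2 below and 1 above it in HSA replicate 6. The heart miRNA miR-208b was at 67.7 and 68.3 CPM in them, lower than the 85.4 CPM of the lowest control library. HSA replicate 3 had 357 CPM of miR-1, the main miRNA of heart muscle, against at least 44737 CPM in every control library, and 204390 CPM of the liver miRNA miR-122. Its tissue label of heart therefore had little support in the muscle markers. The summed level of 7 epithelial miRNAs was highest in HSA replicates 5 and 4, with 3285 and 544 CPM, and at most 20.9 CPM in control. The endothelial miR-126 was at 944 to 4295 CPM in HSA and 2371 to 4213 CPM in control (log2 fold change -0.45, edgeR adjusted p = 0.328).

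A miRNA was called where edgeR's quasi-likelihood test gave an adjusted p under 0.01 and a fold change of at least 2. Of the 4 members, 2 were called, both higher in HSA, 1 was tested without a call and 1 had too few counts for the test. In the same test 25.8% of the 225 miRNAs were called and 18.7% were called higher, so that with so few members the count does not set them apart. The median log2 fold change of the 3 members tested was 3.09, beside 0.34 for all miRNAs tested. MiR-196b passed the filter on low counts only through its HSA libraries and could only be called higher, so neither the count of calls nor this median is evidence about the members.

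MiR-10a, the miR-10 member from the HOXB cluster, which also holds a gene of miR-196a, rose in cardiac HSA. Its level in the control libraries had a lowest value of 439.7, a median of 986 and a highest value of 1597 CPM. In the HSA libraries these values were 990.2, 6755 and 24963 CPM. HSA replicates 2, 3, 4 and 5 exceeded the whole control range, and HSA replicates 1 and 6 fell within it, at 990.2 and 1546 CPM. On the CPM as deposited, without TMM factors, HSA replicate 6 was above that range, at 1264 CPM against 1201 CPM in control replicate 4. HSA replicates 1 and 6 are the libraries whose summed muscle markers lay inside the control range, though their miR-208b lay below it. The part of the tissue mixture in the difference was not tested. HSA averaged 8214 ± 8779 CPM (SD, n = 6), and control 966 ± 449 CPM (SD, n = 6). In edgeR's test this was a log2 fold change of 3.09 with a standard error of 0.71 and a 95% interval of 1.55 to 4.63 (adjusted p = 0.00461). By mean level miR-10a moved from rank 55 to rank 22 of the 453 miRNAs.

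The call of miR-10a did not hold in every fit with a library omitted. With 1 library omitted at a time, it was lost in 7 of 12 fits, those without HSA replicate 4 or any 1 control library. Between 8.3% and 13.1% of all miRNAs were called higher in these fits, beside 18.7% with all libraries. In the fits that kept the call, 13% to 19.9% were called higher. Omitting HSA replicate 4 brought the log2 fold change to 1.97 (edgeR adjusted p = 0.0132), whereas omitting HSA replicate 3 left it at 3.09 (edgeR adjusted p = 0.00798). Without any 1 of the 6 control libraries it stayed between 2.93 and 3.28, with edgeR adjusted p from 0.0104 to 0.0128.

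**Figure D1:**
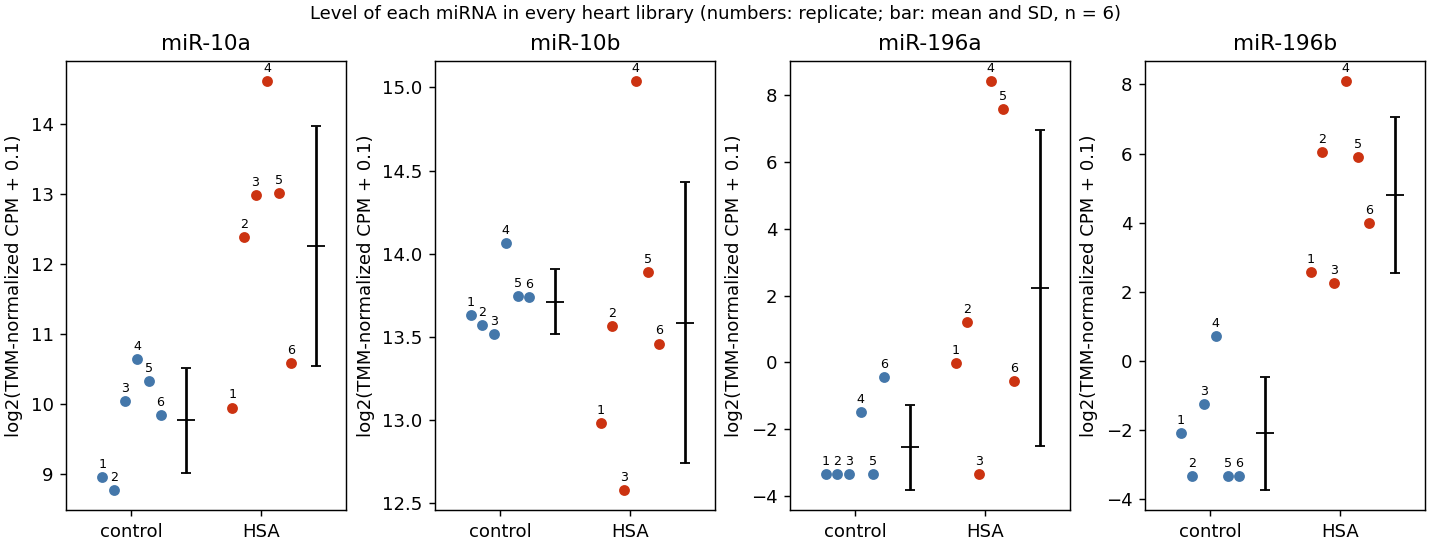
Level of miR-10a, miR-10b, miR-196a and miR-196b in every heart library, on the scale log2(TMM-normalized CPM + 0.1), with control libraries in blue and HSA libraries in red, the replicate number above each point, and the mean with its SD (n = 6) as a black bar. MiR-196b separates the groups, with 4.67 CPM or more in HSA and 1.55 CPM or less in control, whereas miR-10b overlaps between them.

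MiR-10b, the member from the HOXD cluster, did not pass the test. It was the more abundant of the miR-10 pair in every control library, with a lowest value of 11716, a median of 13191 and a highest value of 17166 CPM. In HSA the corresponding values were 6131, 11705 and 33595 CPM. HSA replicate 4 lay above every control library, and HSA replicates 1, 3 and 6 lay below all of them. These positions depend on the scaling. On the CPM as deposited, HSA replicates 2, 4 and 5, at 22361, 36987 and 16224 CPM, lay above the highest control value of 12911 CPM. HSA replicate 6, at 9216 CPM, was then inside the control range, and HSA replicates 1 and 3 stayed below it. HSA averaged 14401 ± 9923 CPM (SD, n = 6), against 13532 ± 1951 CPM (SD, n = 6) for control. EdgeR estimated a log2 fold change of 0.09 with a standard error of 0.35 (adjusted p = 0.841), and the 95% interval from -0.68 to 0.86 allows a change in either direction. The direction turned with the processing, from -0.62 without HSA replicate 4 (edgeR adjusted p = 0.0653) to 0.68 with no scaling beyond library size (edgeR adjusted p = 0.133). Without HSA replicate 3 it was 0.25.

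The balance between the miR-10 pair shifted in every HSA library. A ratio of counts within a library does not depend on how libraries are scaled. MiR-10a made up 3.48% to 8.57% of the summed counts of miR-10a and miR-10b in control, with a mean of 6.48% ± 2.37 (SD, n = 6). In HSA it made up 10.9% to 57.1%, with a mean of 31.4% ± 17.9 (SD, n = 6). The groups did not overlap. The closest libraries were control replicate 5, with 8.57% of 103364 counts (95% Wilson interval 8.40% to 8.75%), and HSA replicate 1, with 10.9% of 20223 counts (95% Wilson interval 10.5% to 11.4%). These intervals treat each read as independent and leave out differences between dogs. Amplified reads are not independent molecules, so the intervals are likely too narrow even for counting error. How many other pairs of miRNAs separate the groups in this way was not counted. By level, 15.1% of the 225 miRNAs tested were higher in every HSA library than in any control library, and 10.7% were lower. The separation is therefore not shown to be particular to the miR-10 pair.

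MiR-10b counts were 15.4 times those of miR-10a in control and 2.51 times in HSA, as geometric means over libraries. The log2 ratio of miR-10b to miR-10a was 3.95 ± 0.64 (SD, n = 6) in control and 1.33 ± 1.36 (SD, n = 6) in HSA, a difference of -2.62 (exact permutation test, two-sided p = 0.00216). That p is the smallest that 6 libraries against 6 can give. Omitting any 1 library gave differences between -2.96 and -2.27 (exact permutation p = 0.00433 each time, again the smallest possible), with -2.44 without HSA replicate 4 and -2.27 without HSA replicate 3. The 4 HSA libraries with the largest share of miR-10a were replicates 3, 4, 5 and 2, the same 4 with summed muscle markers below the control range. In HSA replicates 1 and 6, with only the sum inside that range, miR-10a made up 10.9% and 12.1%, above every control library.

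**Figure D2:**
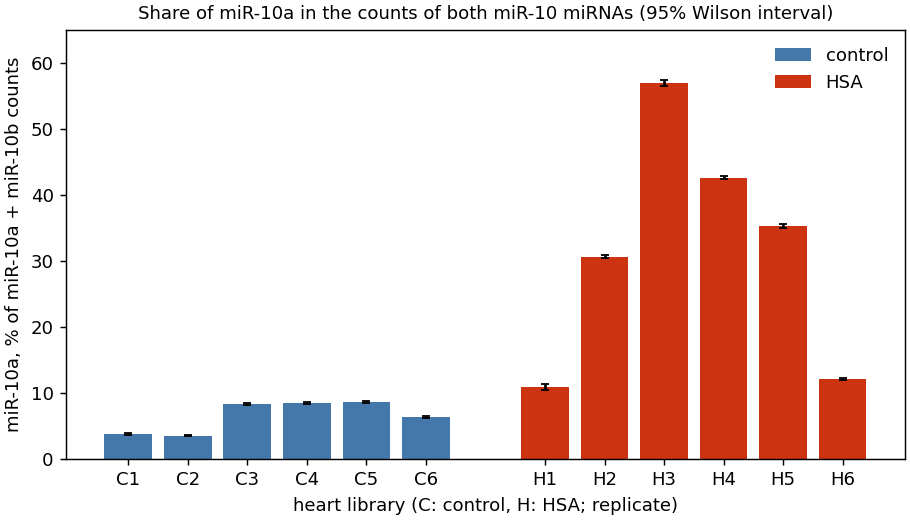
Share of miR-10a in the summed counts of miR-10a and miR-10b, in percent, for each heart library (C, control in blue; H, HSA in red; the number is the replicate), with 95% Wilson intervals. All 6 HSA bars, from 10.9% to 57.1%, are higher than the tallest control bar, 8.57%.

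The paralogs were checked for shared counts, because a read can fit both members of so similar a pair. MiR-10a and miR-10b had equal counts in 0 of the 12 libraries, and the ratio of miR-10b to miR-10a ran from 0.753 in HSA replicate 3 to 27.7 in control replicate 2. The counts of the pair were therefore not copies of each other. Reads of miR-10b counted on miR-10a would be included in the miR-10a values, and how many there were was not tested. The summed level of the pair was 12633 to 18763 CPM in control and 9069 to 58558 CPM in HSA.

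MiR-196b, from the HOXA cluster, rose from near 0 in control heart and was counted in every HSA library. It had 0 counts in 3 control libraries, and 1, 3 and 12 counts in control replicates 1, 3 and 4. The HSA libraries had 13, 592, 15, 1226, 317 and 135 counts in replicates 1 to 6. In normalized terms the control libraries had a median of 0.0691 and a highest value of 1.55 CPM. The HSA libraries had a lowest value of 4.67, a median of 37.6 and a highest value of 271 CPM. All 6 HSA libraries were above all control libraries, as were those of 15.1% of the 225 miRNAs tested. A count of 0 allows up to 3 counts, which is 0.306 to 0.482 CPM in the control libraries with none.

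EdgeR put miR-196b at a log2 fold change of 7.62, with a standard error of 1.45 and a 95% interval of 4.48 to 10.76 (adjusted p = 0.00199). Its size rests on control counts near 0, and limma on the log2 of deposited CPM plus 1 gave 4.79 (adjusted p = 0.0017). MiR-196b was called in all 12 fits with 1 library omitted, with log2 fold changes from 6.09 without HSA replicate 4 to 9.21 without control replicate 4. In these fits 8.3% to 19.9% of all miRNAs were called higher. With control counts near 0, miR-196b could only be called higher, so the repeated call is no evidence about its direction. The paper also measured miR-196b and miR-10a by quantitative PCR, a different method with its own limits. Of these, only miR-10a is among the miRNAs it lists as changed in cardiac HSA by quantitative PCR, and it was higher there. That list used a looser p limit than the calls here, and miR-196b is not on it. The paper's separate list from sequencing was not compared here. Without HSA replicate 3, the library with little muscle RNA, edgeR put miR-196b at 7.87 on the log2 scale (adjusted p = 0.00233). HSA replicates 2, 4 and 5 carried the highest levels, at 65.6, 271 and 59.4 CPM. These were also the HSA libraries with the 3 highest summed epithelial markers. In HSA replicate 2, however, 3 of the 7 epithelial markers had 0 counts. Its miR-200c and miR-205, at 7.98 and 0.222 CPM, were the lowest of the HSA libraries. The part of epithelial tissue in the miR-196b values was not tested. HSA replicates 1 and 6, whose summed muscle markers lay inside the control range, had 5.83 and 15.8 CPM.

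MiR-196a, whose genes lie in the HOXB and HOXC clusters, was high in only 2 of the 6 HSA libraries. Of its precursor entries the one with more counts was used. It had 0 counts in control replicates 1, 2, 3 and 5, 2 counts in control replicate 4 and 4 counts in control replicate 6. In HSA it had 1530 counts in replicate 4 and 1027 in replicate 5, or 338 and 193 CPM. The other HSA libraries had 2, 20, 0 and 5 counts in replicates 1, 2, 3 and 6, so that only replicate 2 stood more than a few counts above control. The count of 0 in HSA replicate 3 allows up to 0.934 CPM.

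MiR-196a did not pass the filter on low counts, so the fit over all tested miRNAs gave it no value. On the log2(CPM + 0.1) scale, HSA averaged 2.22 ± 4.72 (SD, n = 6) and control -2.53 ± 1.27 (SD, n = 6), a difference of 4.75 (exact permutation test, two-sided p = 0.0325). In 8 of the 12 tests with 1 library omitted the p rose above 0.05, and it was 0.0649 without HSA replicate 4 or HSA replicate 5. Without HSA replicate 3 it was 0.00866 (exact permutation test). When both HSA replicates 4 and 5 were left out, a choice made after seeing the data, the difference was 1.87 (exact permutation p = 0.143). These are the HSA libraries with the highest epithelial sums, and the part of that tissue in the miR-196a values was not tested. With no filter on low counts, edgeR called miR-196a higher, at 9.11 on the log2 scale with a standard error of 2.24 (adjusted p = 0.00759), in a fit in which 13.1% of 320 miRNAs were called higher. DESeq2 gave 9.22 (adjusted p = 4.76e-06), with 17.3% of 301 miRNAs called higher.

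The precursor entries of miR-196a cannot be assigned to separate loci, since they carry the same mature miRNA. The other entry had 1135 counts in HSA replicate 4 and 829 in HSA replicate 5. The balance of miR-196b to miR-196a differed from library to library. In HSA replicate 5 miR-196a made up 76.4% of 1344 counts of the pair (95% Wilson interval 74.1% to 78.6%), and in HSA replicate 4 it made up 55.5% of 2756 counts (95% Wilson interval 53.7% to 57.4%). In HSA replicate 2 it was 3.27% of 612 counts (95% Wilson interval 2.13% to 4.99%), although miR-196b was slightly higher there than in replicate 5. Equal counts occurred in 2 of the 12 libraries, both of them control libraries with 0 counts of either miRNA. The log2 ratio of miR-196b to miR-196a was 1.88 higher in HSA (exact permutation test, two-sided p = 0.214), where the control ratios rest on at most 14 counts a library.

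**Figure D3:**
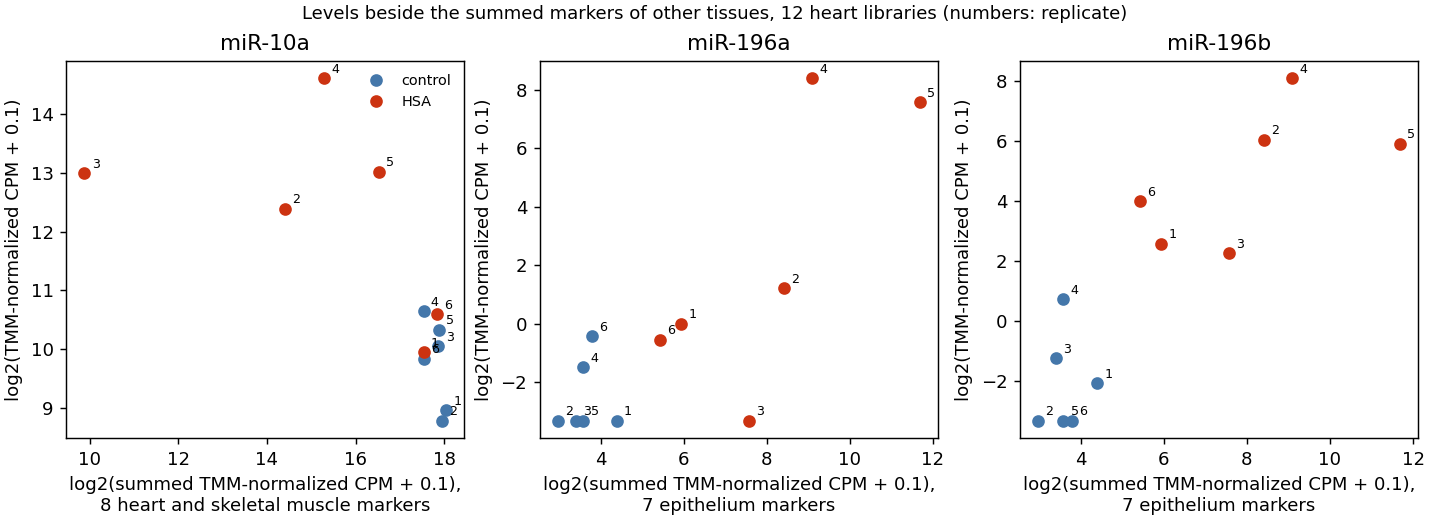
MiR-10a against the summed level of 8 muscle markers, and miR-196a and miR-196b against the summed level of 7 epithelial markers, each point being 1 heart library on the scale log2(TMM-normalized CPM + 0.1), with control in blue, HSA in red and the replicate number beside the point. HSA replicates 1 and 6 lie among the control libraries for miR-10a and the muscle sum, and HSA replicates 4 and 5 lie highest for both miR-196a and the epithelial sum.

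The members varied in how much they differed among the HSA dogs. The SD of the log2 level over the HSA libraries was 2.26 for miR-196b, 1.72 for miR-10a and 0.85 for miR-10b, where the median of all tested miRNAs was 0.76. Over the control libraries it was 0.20 for miR-10b and 0.75 for miR-10a, beside a median of 0.31, so miR-10b was among the steadier miRNAs of control heart and miR-10a was not.

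HSA replicate 4 had the highest level of each of the 4 members. Within the 6 HSA libraries, miR-10b and miR-196b had a Pearson r of 0.947 (exact permutation p = 0.00556, adjusted p = 0.025 over 6 pairs) and a Spearman rho of 0.943 (exact permutation p = 0.0167, adjusted p = 0.05). MiR-10b and miR-196a had an r of 0.895 (exact permutation p = 0.00833, adjusted p = 0.025) and a rho of 0.943 (exact permutation p = 0.0167, adjusted p = 0.05). For miR-196a and miR-196b, r was 0.865 (exact permutation p = 0.0167, adjusted p = 0.0333) and rho was 0.886 (exact permutation p = 0.0333, adjusted p = 0.0667). Without the 2 libraries farthest from the median of the first miRNA, r over the other 4 was 0.900, 0.772 and 0.758 for these pairs. The pairs with miR-10a had an r of 0.620 with miR-10b, 0.595 with miR-196a and 0.686 with miR-196b, with exact permutation p from 0.119 to 0.222 and adjusted p from 0.179 to 0.222. Their rho was 0.657, 0.600 and 0.543 (exact permutation p from 0.175 to 0.297), and their r over the 4 libraries nearest the median of miR-10a was 0.753, 0.596 and 0.548. All of these share the libraries and their scaling factors. MiR-196a had only 2, 20, 0 and 5 counts in HSA replicates 1, 2, 3 and 6. In its pairs, the ranks and log2 positions of these libraries rest on few counts and on the added 0.1. On the deposited CPM, the pairs of miR-196a with miR-10b and with miR-196b no longer passed 0.05 (exact permutation, adjusted p = 0.106 for both).

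The miRNAs with the most similar pattern to each member were sought among the 222 other tested miRNAs, by the root mean square difference of centred log2 levels over the 12 libraries. MiR-10b was nearest to let-7e, let-7b and let-7a, with differences of 0.38, 0.42 and 0.42 on the log2 scale, where the median over all 222 was 0.98. MiR-10a was nearest to miR-204, miR-150 and miR-155, at 0.89, 0.90 and 0.92 (median 1.84). MiR-150 and miR-155 are known from lymphoid cells, whereas miR-204, the nearest, is on none of the marker lists used here. Libraries of both groups enter the difference, so miRNAs with a similar fold change lie close for any member. The log2 fold changes of miR-204, miR-150 and miR-155 were 2.03, 2.35 and 2.27. The cell types behind these patterns were not tested. MiR-196b was nearest to miR-182, miR-8865 and miR-200c, at 2.18, 2.24 and 2.32 (median 3.88), and miR-196a to miR-200c, miR-215 and miR-182, at 1.90, 2.55 and 2.76 (median 3.96). MiR-200c is a miRNA of epithelial cells, and miR-215 one of gut and kidney.

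Marker levels of other tissues moved with the condition. Of the epithelial list, 2 of 7 miRNAs were called higher, 1 was tested but not called and 4 were not tested, and each of the 6 HSA libraries had a higher sum, from 43.2 to 3285 CPM, than any control library, from 7.74 to 20.9 CPM. All 3 gut and kidney markers were called higher, with sums of 240.4 to 12256 CPM in HSA and 139 to 245 CPM in control, as was miR-122. Of 5 blood cell markers 4 were called higher, with sums of 2806 to 36366 CPM in HSA and 5147 to 12635 CPM in control. None of the 8 muscle miRNAs was called in either direction by edgeR, with adjusted p from 0.0713 to 0.931. Of the 8, the myosin-gene miRNAs miR-208a and miR-208b were both at 0 counts in HSA replicate 3, and 1 marker was at 0 in each of HSA replicates 4, 5 and 6. The part of these tissues in the differences of miR-10a and miR-196 was not tested.

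The other branches of the miR-10 superfamily, miR-99 and miR-125, moved in the opposite direction to miR-10a. The list held 5 names, of which 4 had an entry and passed the filter, and miR-100 was not analysed here. MiR-125b, the most abundant of them, had a lowest value of 29013, a median of 32498 and a highest value of 38943 CPM in control. In HSA these values were 5464, 8646 and 16736 CPM, so that the groups lay well apart. MiR-125a, miR-125b and miR-99a were called lower, at log2 fold changes of -1.77, -1.75 and -1.04 (edgeR adjusted p = 0.000935, 0.000965 and 0.00384). MiR-99b missed the fold threshold, at -0.99 (edgeR adjusted p = 0.00271). Each of the 4 was lower in every HSA library than in any control library, as were 10.7% of all miRNAs tested, and 7.11% were called lower. On the CPM as deposited, without TMM factors, only miR-125a and miR-125b kept this separation. MiR-99a was there at 12685 CPM in HSA replicate 4 and 11657 CPM in control replicate 4. MiR-99b was at 2165 CPM in HSA replicate 5 and 1976 CPM in control replicate 3. The median log2 fold change of the 4 was -1.39. With library size as the only scaling, the median of all miRNAs moved to 0.97 and 2.22% were called lower. MiR-125a, miR-125b, miR-99a and miR-99b stayed negative there, at -1.22, -1.25, -0.52 and -0.46, and miR-99a was no longer called (edgeR adjusted p = 0.0201). MiR-99a also lost its call by limma on deposited CPM (-0.48, adjusted p = 0.0225), with the replicate block (-1.10, edgeR adjusted p = 0.0255), and without control replicate 1 (-1.001, adjusted p = 0.0109), control replicate 5 (-1.04, adjusted p = 0.0101), HSA replicate 2 (-0.97) or HSA replicate 3 (-0.95). With 1 library omitted at a time, 2 to 4 of these miRNAs were called, where 2.2% to 8.85% of all miRNAs were called lower. MiR-615, a further miRNA of the HOXC cluster, had 6 counts in HSA replicate 5 and 0 in the other 11 libraries, and failed the filter on low counts. It was not called with no filter (edgeR log2 fold change 3.504, adjusted p = 0.118) or by DESeq2 (2.93, adjusted p = 0.474).

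**Figure D4:**
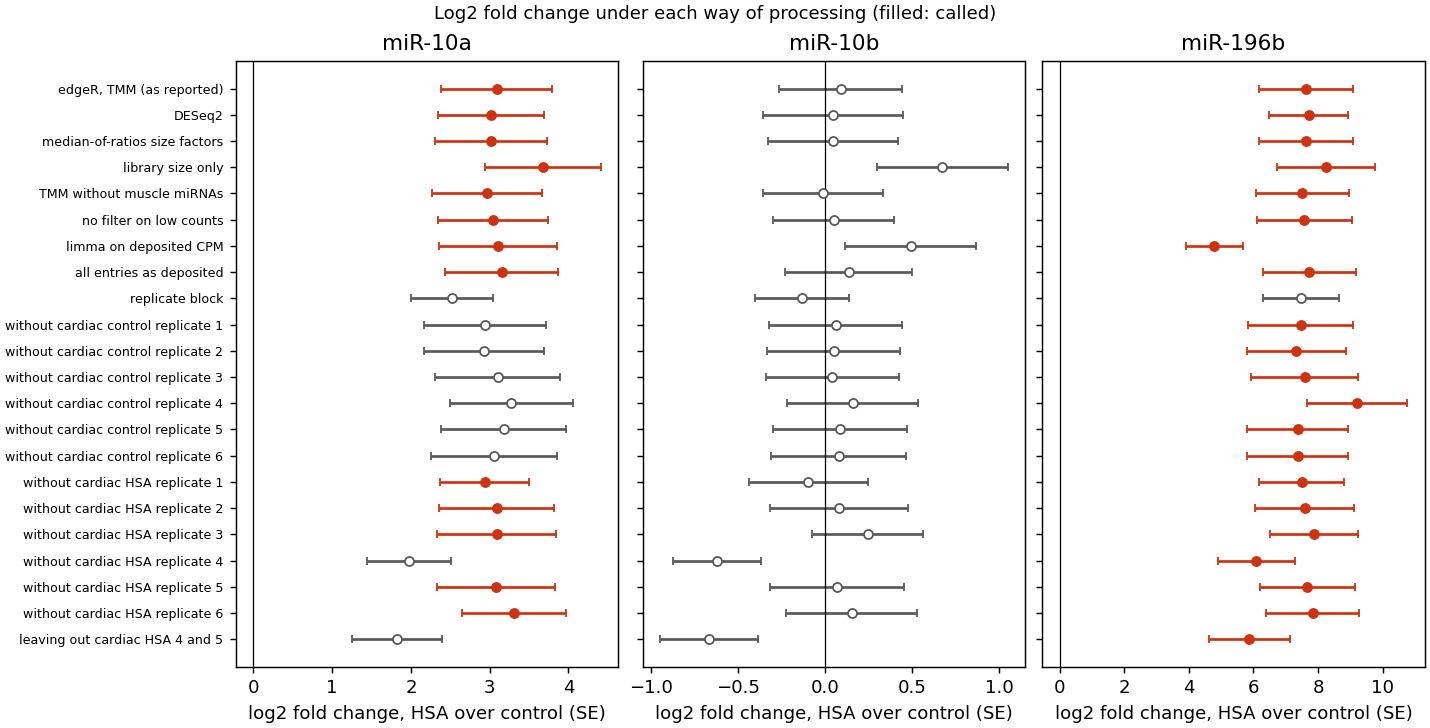
Log2 fold change of miR-10a, miR-10b and miR-196b, HSA over control, with its standard error, under each way of processing and with libraries left out, where filled red points mark called values. MiR-10a and miR-196b stay above 0 throughout, from 1.82 to 3.68 and from 4.79 to 9.21, while miR-10b lies on both sides of 0, from -0.67 to 0.68.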

How the data were processed

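Per the study's methods, adapters were removed with Cutadapt and the heart reads were placed on CanFam3.1 with Bowtie. MiRNAs were annotated by miRBase and counted with HTSeq. The authors deposited raw counts for each pair of mature miRNA and precursor, and a second table with these as CPM. The methods name a NEXTflex kit and the labels a QIAseq kit. No molecular identifiers are described for these libraries, so amplified reads were counted. Groups follow the titles. Nothing in the labels pairs the dogs. Same-numbered libraries had correlations of their deviations from -0.255 to 0.0153.

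Of 517 entries, those of 1 mature name with identical counts were merged to 474, and edgeR 4.0.16 (R 4.3.3) kept 244, of 225 mature names. The entry with most counts stood for its name. The quasi-likelihood F test used TMM factors, Benjamini-Hochberg adjustment over all entries, and limits of 0.01 and a log2 fold change of 1. TMM factors ran from 0.769 to 1.97. DESeq2 1.42.0, limma 3.58.1 and scipy 1.17.1 served for the alternatives and exact tests, checked on simulated data. Ratios added 0.5 counts. Members and lists were chosen with earlier results of these data known. Named miRNAs are the members, the listed relatives and markers, and the 3 nearest in pattern to each member.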

Additional observations from a re-analysis of the deposited data

Results flagged for a closer look

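In a group of 6 libraries, a library was noted where its gap to the next value, as a share of the group's range, exceeded Dixon's limit. For normally distributed values chance gives this for about 1 group in 20. The CPM were used without a log, a scale on which single high values stand out more easily, so that rate does not apply here. Of the 12 groups of values examined, 5 had such a library, and each was a replicate 4. HSA replicate 4 was the highest for miR-10a (24963 CPM), miR-10b (33595 CPM) and miR-196b (271 CPM). Control replicate 4 was the highest for miR-10b (17166 CPM) and miR-196b (1.55 CPM, from 12 counts). The shared number does not tie these dogs to each other. HSA replicate 4 also had a muscle sum of 40090 CPM, an epithelial sum of 544 CPM and the highest blood cell sum, 36366 CPM, and the part of these tissues in its values was not tested.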

How the results depend on the processing

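Over the 8 alternatives that kept all libraries, miR-10a was called in 7, with log2 fold changes from 2.52 to 3.68. MiR-196b, which could only be called higher, was called in 7, from 4.79 to 8.24. The exception for both was the fit with the replicate number as a block, at 2.52 (edgeR adjusted p = 0.0197) for miR-10a and 7.47 (adjusted p = 0.0104) for miR-196b. In that fit miR-10b was at -0.13, 0 members were called and 2.67% of all miRNAs were called, so the numbers of the titles, which pair no dogs, moved the count from 58 to 6 of 225. MiR-10b was at -0.012 with TMM factors computed without the muscle miRNAs. With 1 library omitted at a time, the fold change on the log2 scale ran from 1.97 to 3.31 for miR-10a, from -0.62 to 0.25 for miR-10b and from 6.09 to 9.21 for miR-196b, 1 to 2 members were called, and the difference of miR-196a ran from 3.52 to 5.86. MiR-10b was negative without HSA replicate 1 (-0.10) and without HSA replicate 4 (-0.62). Chosen after the data were seen, leaving out HSA replicates 4 and 5 gave 1.82 for miR-10a (adjusted p = 0.0301), -0.67 for miR-10b, 5.88 for miR-196b (adjusted p = 0.00533) and 1.87 for miR-196a, and 1 member was called, where 11.6% of 233 miRNAs were called higher. The log2 ratio of miR-196b to miR-196a was then 3.63 higher in HSA (exact permutation p = 0.019). On deposited CPM the r within HSA was 0.845 for miR-10b with miR-196a and 0.849 for miR-196a with miR-196b. No value of miR-196a came from the reported fit, so none is compared. The cause of these changes was not tested, beyond the smaller number of libraries where some were left out. Depth limits miR-196 in control and in HSA replicate 1, the shallowest library, where 3 counts are 1.35 CPM.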
